A study of Mus musculus with 4 samples.

Results

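Interferon-stimulated effector genes and the interferon receptors were compared between proliferating and resting Tregs. The 46 genes are known interferon-induced genes and their receptors, and no threshold on the array values entered the rule, although the list was drawn up with earlier results of these data known. Of these, 43 had a probe set of their own among the 22180 genes tested. Dtx3l and Ifi27l2a were listed only on probe sets shared with a neighbour or a close copy, no probe set was listed here for Ifi44, and these 3 genes carry no value.

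Tregs are the Foxp3-expressing CD4+ T-cells that restrain other T-cells. They were taken from the NOD strain of mice, which becomes diabetic through autoimmunity. Per the labels, they spent 5 days in co-culture with G-BMDCs, the dendritic cells that GM-CSF yields from cultured bone marrow. Proliferating Tregs (n = 2 arrays) had diluted a division-tracking dye, and resting Tregs (n = 2 arrays) from the same kind of co-culture had kept it. The labels name the dye as CFSE and the methods as Cell Trace Violet. Whether the 2 samples of a group were separate cultures is not given in the sources used here, so the spread between them may be technical. Each limma p-value rests on that spread in the gene and, more heavily, on the spread pooled over all genes, from these samples alone. The age of the mice and the number pooled per array are not given in the labels.

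Interferons are secreted proteins that warn cells of infection. Type I interferons bind the receptor pair IFNAR1 and IFNAR2, and type II interferon (IFN-γ) binds IFNGR1 and IFNGR2. Both receptors act through JAK kinases and STAT proteins. The signals end at promoter elements called the ISRE, mainly for type I interferons, and GAS, mainly for IFN-γ, and the genes so switched on encode proteins that bind, modify or degrade viral RNA or block virus entry and budding. In T-cells the same signals also affect proliferation and survival.

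The deposited values were read as log2 expression values, on which a difference of 1 is a doubling. Over all probe sets, the medians of the proliferating arrays were 5.995 and 5.97, against 6.27 and 6.27 in the resting arrays, and the SD across genes was 1.43 and 1.44 in the proliferating arrays, against 1.13 and 1.13 in the resting arrays. Arrays of a group correlated across genes at r = 0.981 (proliferating) and r = 0.980 (resting), and arrays of different groups at 0.797 to 0.819. The Treg markers Foxp3 (10.15 and 10.15 in proliferating Tregs, against 8.30 and 8.26 in resting Tregs) and Il2ra (11.18 and 11.21 in proliferating Tregs, against 8.23 and 8.17 in resting Tregs) were higher in proliferating Tregs, as were 8 of 9 T-cell markers, while 5 were higher after centring each array on housekeeping genes and 3 after centring on Cd3 genes. Markers of other cells moved between the groups too. The mean log2 level of 13 neutrophil markers was 6.20 and 6.13 in proliferating Tregs, against 8.92 and 9.07 in resting Tregs, with all 13 lower. That of 8 B-cell markers was 6.01 and 6.07 in proliferating Tregs, against 8.65 and 8.74 in resting Tregs, with all 8 lower. Of 19 dendritic and myeloid markers, 10 were higher, led by Clec4n (4.20 on the log2 scale), Ccl17 (3.57) and Clec7a (2.86), and 3 were lower, namely Flt3, Xcr1 and Zbtb46, while after those centrings 4 and 3 were higher and 13 and 14 lower. Next in size among the 10 on the deposited values were Ccl22 (1.93), Cd68 (1.80) and Lyz2 (1.37). The other 6 of the 19 did not pass the test. Among those 6, Itgax, a defining dendritic cell marker, differed by -0.21 and Cd209a by 0.036, both with overlapping groups. Their mean levels ranked at percentiles 44.3 and 99.2 of all genes. The mean level of the 19 dendritic and myeloid markers was 7.78 and 7.73 in proliferating Tregs, against 6.78 and 6.87 in resting Tregs. The part of these cells in the interferon results was not tested, and in such bulk RNA fewer cells of a type and less RNA per cell cannot be told apart.

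On the deposited values most interferon-stimulated genes were higher in proliferating Tregs, while after housekeeping and Cd3 centring fewer were higher than lower. By limma with Benjamini-Hochberg adjustment over all 22180 genes, 39 of the 43 measured genes were higher in proliferating Tregs and 1, Oasl1, was lower, while Mx1, Rsad2 and Tor3a did not pass the test. Among all genes, 25.6% were higher, 34.5% were lower and 60.1% passed in either direction by the same test. A log2 fold change of at least 1 was reached by 27 of the 43 genes upward, against 12.6% of all genes, and by 0 downward, against 4.42% of all genes. Both proliferating arrays lay above both resting arrays for 39 genes, against 33% of all genes, and below them for Oasl1 and Rsad2, against 48.1% of all genes. The SE of the differences ran between 0.12 and 0.20.

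The median log2 fold change of the 43 genes was 1.33, beside -0.17 over all genes, a gap of 1.51, and the fold changes ranged between -0.46 and 3.67. The direction relative to resting Tregs depended on how the arrays were scaled. Centring shifts all genes of an array alike and cannot change this gap or the order of the fold changes, while quantile normalization can, and lowered the gap to 1.20. With each array centred on its own median 39 genes were higher, and after quantile normalization 37 were higher. With each array centred on 9 housekeeping genes, all of them higher in the proliferating arrays by between 0.40 and 3.52, the median of the 43 genes was -0.17 and that of all genes -1.67, and 15 genes were higher and 19 lower. With centring on Cd3d, Cd3e and Cd3g, themselves higher in proliferating Tregs, 9 were higher and 26 lower. Of all genes, 3.58% were higher and 89.5% lower after housekeeping centring, and 1.48% and 94.7% after Cd3 centring. The counts after these centrings in each group of genes below are to be read beside these shares. On the deposited values 41 of the 43 genes lay above the median of all genes, which centring cannot change, and after quantile normalization 41 did as well. The 9 genes higher with all 5 scalings were Isg15, Rtp4, Ifitm2, Ifitm3, Bst2, Phf11b, Ifi27, Xaf1 and Zbp1. Of all genes called by limma, 42.7% were higher with the values as deposited, 69.7% with median centring, 54.4% with quantile normalization, 3.85% after housekeeping centring and 1.54% after Cd3 centring.

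**Figure D1:**
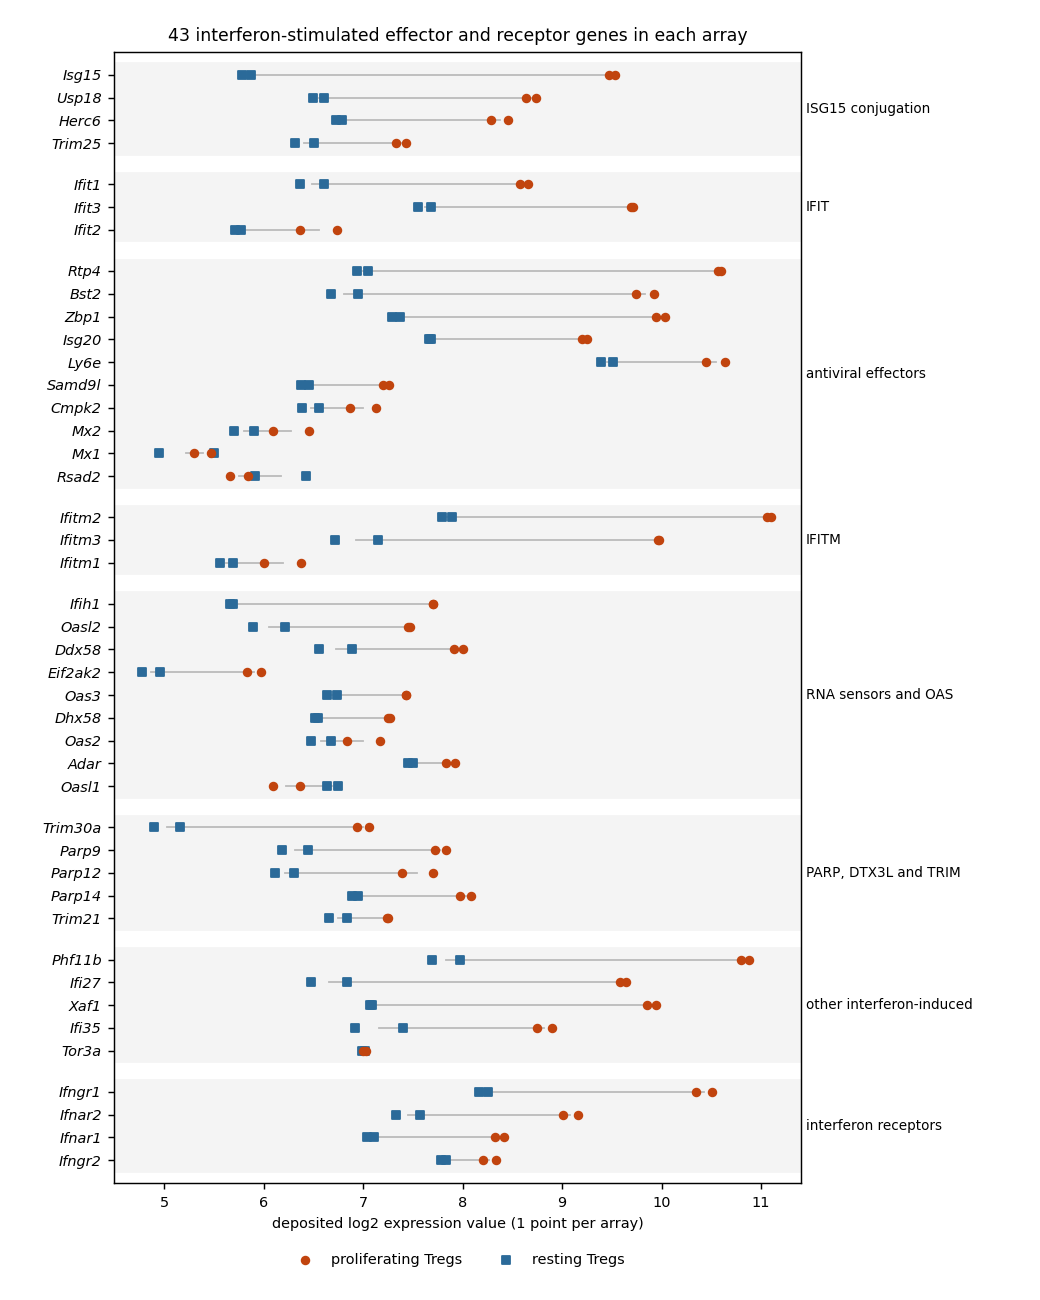
Deposited log2 expression value (x axis) of each of the 43 measured genes (rows, by role) in the 2 proliferating and the 2 resting arrays, 1 point per array, with a line between the group means. Proliferating Tregs lie to the right for 39 genes, to the left for Oasl1 and Rsad2, and overlap with resting Tregs for Mx1 and Tor3a.

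**Figure D2:**
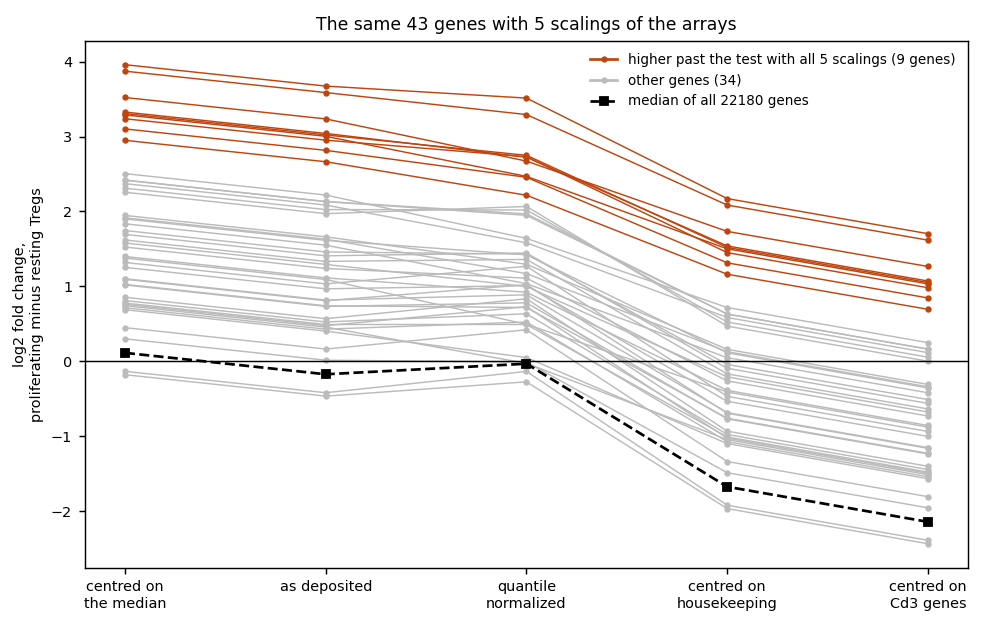
Log2 fold change of the 43 genes (proliferating minus resting, y axis) with 5 scalings of the arrays (x axis), 1 line per gene and a dashed line for the median of all 22180 genes. The 9 coloured genes stayed higher in proliferating Tregs with every scaling, while centring on housekeeping genes left 15 genes higher and 19 lower and centring on Cd3 genes 9 higher and 26 lower.

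The promoters of 33 of the 46 genes were in the RefSeq table used here (mouse GRCm38.p6, 250 bases before to 50 bases after each start). The ISRE was searched as GAAA, any 2 bases and GAAA again, in 1 run and on both strands. It was present in 14 of the 33 genes (42.4%), against 3.99% of all 27025 genes in the table. The GAS was searched as TTCNNNGAA, which reads the same on both strands, and was present in 9 of the 33 genes (27.3%), against 9.55% of all genes. Both elements occurred in 3 genes, and their matches overlapped in Bst2 and Ifitm3. Among measured genes with a promoter in the table, 11 of the 20 higher by at least 1 held an ISRE match, against 3 of the 11 others. The median log2 fold change was 2.06 for the 14 of these genes with an ISRE match and 1.29 for the 17 without one. The ranges overlapped, at -0.42 to 3.67 and -0.46 to 2.82. Measured genes without a promoter in the table, such as Rtp4 (3.59) and Tor3a (0.014), are in none of these counts and medians. Higher genes without an ISRE match in this window included Xaf1 and Herc6, and Rsad2, which held a match, was not higher. A match is a description of the letters and not a measured binding site.

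The 5 promoters shown are those whose ISRE matches lay wholly upstream of the start and whose printed stretch lay outside the annotated gene. Among them, Isg15 is the gene of the largest increase and Rsad2 one that did not rise. Each is 80 bases, 5′ to 3′ on the strand of the gene, with the ISRE matches in capitals, from RefSeq with GRCm38.p6 coordinates.
Isg15 (chr4:156200846-156200925, minus strand): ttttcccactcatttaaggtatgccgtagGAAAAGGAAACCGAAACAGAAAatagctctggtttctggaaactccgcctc
Ifit1 (chr19:34640759-34640838, plus strand): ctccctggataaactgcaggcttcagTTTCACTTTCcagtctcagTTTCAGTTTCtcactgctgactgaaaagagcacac
Bst2 (chr8:71537555-71537634, minus strand): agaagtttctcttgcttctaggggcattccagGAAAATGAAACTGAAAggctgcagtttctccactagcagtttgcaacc
Oas3 (chr5:120777690-120777769, minus strand): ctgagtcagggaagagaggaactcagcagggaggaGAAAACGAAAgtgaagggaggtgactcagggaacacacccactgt
Rsad2 (chr12:26456528-26456607, minus strand): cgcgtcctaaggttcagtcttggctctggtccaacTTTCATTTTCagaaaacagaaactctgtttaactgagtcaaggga
Isg15 carried 3 overlapping matches that began 78, 72 and 66 bases upstream of its start. Ifit1 held 2 separate matches that began 104 and 85 bases upstream, and Bst2 held 2 overlapping ones that began 130 and 124 bases upstream. Oas3 and Rsad2 held 1 match each, which began 75 and 120 bases upstream.

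The receptors, which receive the signal, were all 4 higher in proliferating Tregs on the deposited values, while 1 was higher and 1 lower after housekeeping centring and 0 were higher and 2 lower after Cd3 centring. Ifngr1, the ligand-binding chain of the IFN-γ receptor, was at 10.35 and 10.51 in proliferating Tregs, against 8.17 and 8.25 in resting Tregs, a difference of 2.22 ± 0.13 on the log2 scale (SE, limma adjusted p = 1.99e-05) or 4.66-fold. Ifnar2, the high-affinity chain of the type I receptor, was at 9.01 and 9.16 in proliferating Tregs, against 7.57 and 7.33 in resting Tregs (1.63 ± 0.14). Ifnar1, its partner chain, was at 8.33 and 8.41 in proliferating Tregs, against 7.04 and 7.11 in resting Tregs (1.29 ± 0.13). All 3 chains lay higher without overlap between the groups, as did 33% of all genes. Ifngr2, the signalling chain of the IFN-γ receptor, was at 8.33 and 8.20 in proliferating Tregs, against 7.84 and 7.79 in resting Tregs, and its difference was smaller, at 0.46 ± 0.13 (adjusted p = 0.0178). Its call was lost after quantile normalization and without proliferating replicate 1, resting replicate 1 or resting replicate 2. Ifnar1, Ifnar2 and Ifngr2 neighbour each other on chromosome 16, while Ifngr1 lies on chromosome 10.

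Genes of the ISG15 system, which joins the ubiquitin-like protein ISG15 to other proteins, were all 4 higher, while 2 were higher and 1 lower after housekeeping centring and 1 was higher and 2 lower after Cd3 centring. Isg15 itself was at 9.53 and 9.47 in proliferating Tregs, against 5.87 and 5.78 in resting Tregs, a difference of 3.67 ± 0.13 or 12.8-fold (adjusted p = 7.67e-06), the largest of the 43 genes on the deposited values. Usp18, the protease that removes ISG15 and restrains the type I receptor, was at 8.63 and 8.73 in proliferating Tregs, against 6.49 and 6.61 in resting Tregs (2.13 ± 0.13). Herc6, the main ISG15 ligase of the mouse, was at 8.28 and 8.46 in proliferating Tregs, against 6.72 and 6.79 in resting Tregs (1.61 ± 0.13). These genes did not overlap between the groups, and 33% of all genes were likewise higher without overlap. Trim25, a ubiquitin ligase that activates the sensor RIG-I, was higher by 0.97 ± 0.14. The other ISG15 enzymes Uba7 (0.75), Ube2l6 (0.73) and Arih1 (0.77), which were not among the 46, were higher as well on the deposited values, and all 3 were lower after housekeeping and Cd3 centring.

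The IFIT genes, whose proteins bind foreign RNA and neighbour each other on chromosome 19, were all 3 higher, while Ifit2 was lower after housekeeping and Cd3 centring and the other two no longer passed the test after Cd3 centring. Ifit1 was at 8.66 and 8.58 in proliferating Tregs, against 6.61 and 6.37 in resting Tregs, a difference of 2.13 ± 0.14 or 4.39-fold (adjusted p = 2.71e-05). Ifit3 was at 9.71 and 9.69 in proliferating Tregs, against 7.68 and 7.55 in resting Tregs (2.09 ± 0.13). Ifit2, at 0.81 ± 0.16, had a 95% interval of 0.44 to 1.18, below the 1.79 to 2.39 of Ifit3. The mean level of Ifit2 ranked at percentile 42.4 of all genes and that of Ifit3 at 96.9, and the part of level was not tested.

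The IFITM genes, whose membrane proteins hinder virus entry, were split in size within 1 group of neighbours on chromosome 7. All 3 were higher on the deposited values, while Ifitm1 was lower after housekeeping and Cd3 centring. Ifitm2 was at 11.10 and 11.06 in proliferating Tregs, against 7.90 and 7.79 in resting Tregs, a difference of 3.24 ± 0.13 or 9.42-fold (adjusted p = 7.67e-06). Ifitm3 was at 9.98 and 9.96 in proliferating Tregs, against 6.71 and 7.15 in resting Tregs (3.04 ± 0.17). Ifitm1, which lies between them, was higher by 0.57 ± 0.16 with a 95% interval of 0.20 to 0.94. Its call was lost without proliferating replicate 1, resting replicate 1 or resting replicate 2. Ifitm1 was dim, at percentile 33.1 of mean level where array signal is weak, against 98.7 for Ifitm2 and 95.8 for Ifitm3. The part of level in this split was not tested.

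Of 10 other antiviral effectors, 8 were higher in proliferating Tregs and 2 did not pass the test, while 3 were higher after housekeeping and Cd3 centring and 6 and 7 were lower. Rtp4, a chaperone of cell surface receptors, was at 10.57 and 10.60 in proliferating Tregs, against 7.05 and 6.94 in resting Tregs, a difference of 3.59 ± 0.13 or 12.0-fold (adjusted p = 7.67e-06). Bst2, the protein tetherin that holds budding virus at the cell surface, was at 9.75 and 9.92 in proliferating Tregs, against 6.67 and 6.95 in resting Tregs (3.02 ± 0.15). Zbp1, a sensor of Z-form nucleic acid that can trigger cell death, was at 9.95 and 10.04 in proliferating Tregs, against 7.37 and 7.29 in resting Tregs (2.66 ± 0.13). These 3 genes stayed higher with all 5 scalings. Bst2 also marks plasmacytoid dendritic cells, which are strong producers of type I interferon. Of 5 other markers of those cells, Tcf4 (-0.93), Klk1 (-0.61), Ccr9 (-0.50) and Siglech (-0.49) were lower in proliferating Tregs on the deposited values and Cox6a2 did not pass the test, while 1 of the 5 was lower after median centring, 3 after quantile normalization and all 5 after housekeeping and Cd3 centring. Isg20, an exonuclease that degrades RNA, was at 9.26 and 9.20 in proliferating Tregs, against 7.67 and 7.69 in resting Tregs (1.55 ± 0.13). Ly6e, a lipid-anchored surface protein, was at 10.45 and 10.64 in proliferating Tregs, against 9.51 and 9.39 in resting Tregs (1.09 ± 0.14). Samd9l (0.82), Cmpk2 (0.53), a mitochondrial nucleotide kinase, and Mx2 (0.48), a dynamin-like GTPase, were higher by less than 1. The calls of Cmpk2 and Mx2 were lost without proliferating replicate 2, resting replicate 1 or resting replicate 2.

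Rsad2 and Mx1, which are among the best known interferon-induced genes, did not pass the test, and their values in each array are given for that reason. Rsad2, the enzyme viperin that makes a chain-terminating nucleotide, was at 5.84 and 5.66 in proliferating Tregs, against 5.91 and 6.43 in resting Tregs, a difference of -0.42 ± 0.19 (adjusted p = 0.0887). Without resting replicate 1, Rsad2 differed by -0.68 and passed the test. Mx1, an antiviral GTPase, was at 5.30 and 5.48 in proliferating Tregs, against 4.95 and 5.50 in resting Tregs, with overlapping groups and a difference of 0.16 ± 0.20 (adjusted p = 0.488). The 95% interval of Mx1, -0.29 to 0.62, does not reach 1. It holds the differences of Mx2 (0.48), Oas2 (0.43) and Adar (0.40), which were called higher. Rsad2 and Mx1 were dim, at percentiles 34.9 and 16.2 of mean level, where array signal is weak. Dim genes that were called higher on the deposited values were Eif2ak2 (percentile 17.8), Ifitm1 (33.1), Trim30a (36.8), Mx2 (37.8) and Ifit2 (42.4). The part of dimness in these results was not tested. After housekeeping centring Rsad2 and Mx1 differed by -1.92 and -1.34, and after Cd3 centring by -2.39 and -1.81. Both were called lower with these centrings, as were 89.5% and 94.7% of all genes. Rsad2 and Cmpk2 are neighbours on chromosome 12, and Cmpk2 was higher. Mx1 and Mx2 are neighbours on chromosome 16.

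Of 9 sensors of viral RNA and members of the OAS family, 8 were higher and Oasl1 was lower. After housekeeping centring 1 was higher and 6 lower, and after Cd3 centring 0 were higher and 8 lower. Among all genes, 89.5% and 94.7% were lower after those centrings. Ifih1, the long RNA sensor MDA5, was at 7.70 and 7.70 in proliferating Tregs, against 5.66 and 5.69 in resting Tregs, a difference of 2.03 ± 0.12 or 4.07-fold (adjusted p = 2.17e-05). Ddx58, the sensor RIG-I, was at 7.92 and 8.01 in proliferating Tregs, against 6.56 and 6.89 in resting Tregs (1.24 ± 0.15). Eif2ak2, the kinase PKR that halts translation on binding double-stranded RNA, was at 5.97 and 5.83 in proliferating Tregs, against 4.96 and 4.77 in resting Tregs (1.03 ± 0.14). All 3 lay higher without overlap, as did 33% of all genes. Dhx58 (0.73), the third sensor of that family, and Adar (0.40), which edits double-stranded RNA, were higher by less than 1. The Adar call was lost after quantile normalization and without proliferating replicate 2, resting replicate 1 or resting replicate 2.

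Within the OAS family, whose founding members make the short oligoadenylates that activate an RNA-degrading enzyme, the directions differed. Oasl2 was at 7.45 and 7.48 in proliferating Tregs, against 5.89 and 6.22 in resting Tregs, a difference of 1.41 ± 0.15 or 2.65-fold (adjusted p = 0.000225), and it was lower by 0.56 after Cd3 centring. Oas3 (0.74) and Oas2 (0.43) were higher on the deposited values and lower after housekeeping and Cd3 centring, and the Oas2 call was lost without proliferating replicate 1, resting replicate 1 or resting replicate 2. Oasl1, which in the mouse restrains translation of Irf7, lies next to Oasl2 on chromosome 5 and went the other way. It was at 6.09 and 6.36 in proliferating Tregs, against 6.75 and 6.63 in resting Tregs, a difference of -0.46 ± 0.15 (adjusted p = 0.0263). The 95% interval of Oasl1 was -0.80 to -0.13 and that of Oasl2 1.06 to 1.76. The Oasl1 call was lost after median centring and quantile normalization, and without proliferating replicate 1, resting replicate 1 or resting replicate 2.

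Of the PARP and TRIM genes, all 5 measured were higher, while 1 was higher and 2 lower after housekeeping centring and 0 were higher and 4 lower after Cd3 centring. Trim30a was at 7.06 and 6.93 in proliferating Tregs, against 4.89 and 5.16 in resting Tregs, a difference of 1.97 ± 0.15 or 3.92-fold (adjusted p = 4.34e-05). It belongs to a mouse family of close copies, and probes could read more than 1 of them. Parp9, which works in a complex with the ubiquitin ligase DTX3L, was at 7.83 and 7.72 in proliferating Tregs, against 6.44 and 6.19 in resting Tregs (1.46 ± 0.14). Parp12 was at 7.39 and 7.70 in proliferating Tregs, against 6.31 and 6.12 in resting Tregs (1.33 ± 0.16). Parp14 was at 7.98 and 8.09 in proliferating Tregs, against 6.95 and 6.89 in resting Tregs (1.11 ± 0.13). Both encode ADP-ribosyltransferases, and neither gene overlapped between the groups, where 33% of all genes were higher without overlap. Trim21, a receptor for antibodies inside the cell, was higher by 0.49 ± 0.13, and its call was lost without resting replicate 1.

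Of the other interferon-induced genes, 4 of 5 measured were higher, while 3 were higher and Tor3a was lower after both housekeeping and Cd3 centring. Phf11b was at 10.87 and 10.80 in proliferating Tregs, against 7.97 and 7.70 in resting Tregs, a difference of 3.003 ± 0.14 or 8.01-fold (adjusted p = 1.26e-05), and it also belongs to a family of close copies. Ifi27, a membrane protein of mitochondria and nucleus, was at 9.64 and 9.58 in proliferating Tregs, against 6.48 and 6.84 in resting Tregs (2.95 ± 0.16). Its annotation lies within that of Ifi27l2a, so probes may not tell the 2 genes apart. Xaf1, which binds the cell death inhibitor XIAP, was at 9.95 and 9.85 in proliferating Tregs, against 7.09 and 7.07 in resting Tregs (2.82 ± 0.13). Ifi35 was at 8.75 and 8.89 in proliferating Tregs, against 6.92 and 7.41 in resting Tregs (1.66 ± 0.18). Its other probe set gave a difference of 2.67 in the same direction. Tor3a, a torsin ATPase, was at 7.03 and 7.003 in proliferating Tregs, against 6.99 and 7.02 in resting Tregs, with overlapping groups and a difference of 0.014 ± 0.12 (adjusted p = 0.927, 95% interval -0.28 to 0.31).

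**Figure D3:**
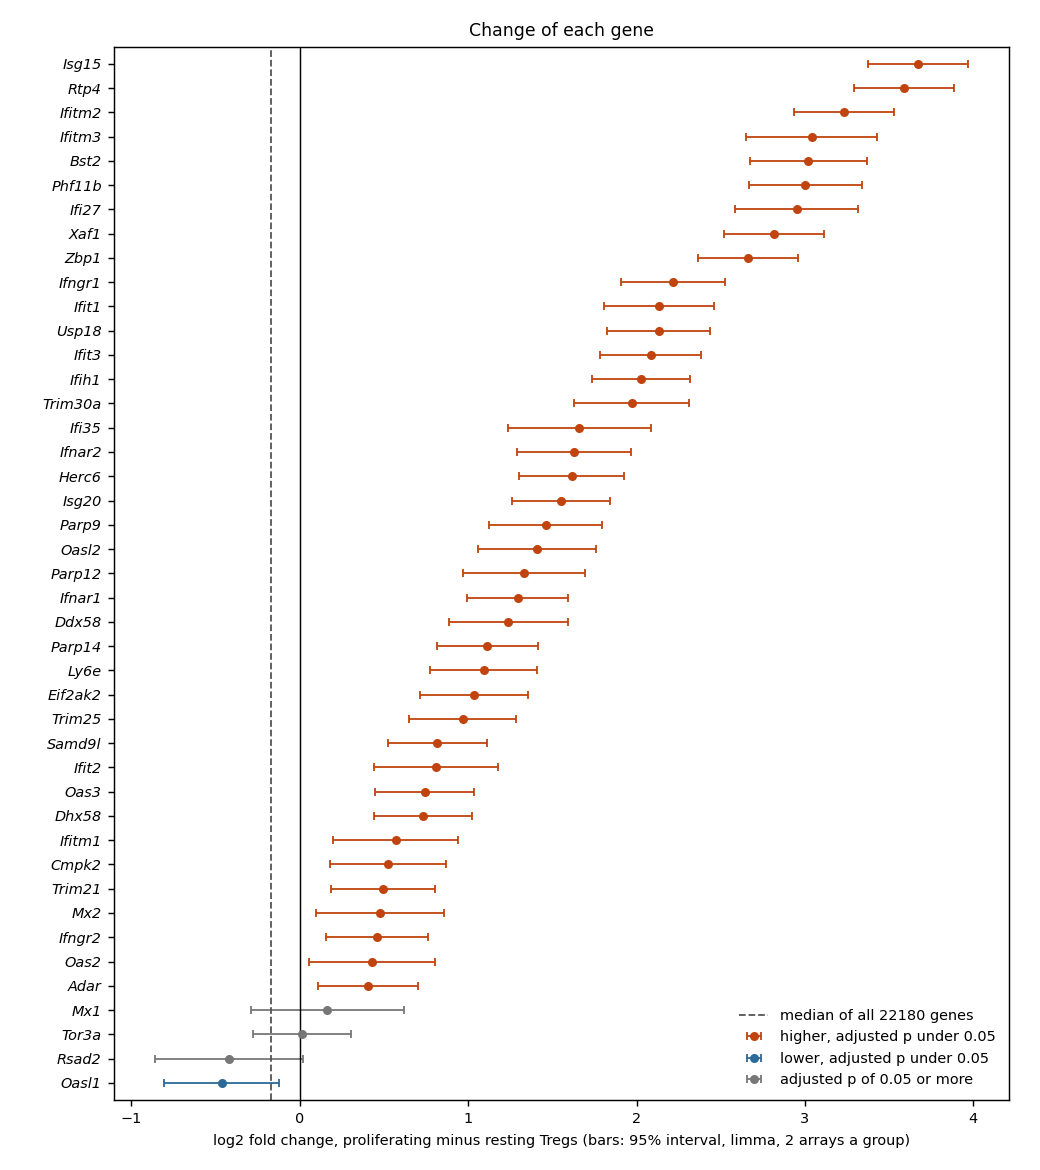
Log2 fold change of each of the 43 genes on the deposited values (proliferating minus resting, x axis) with its 95% interval from limma, in order of size, and a dashed line at the median of all genes, -0.17. Isg15 (3.67) stands at the top and Oasl1 (-0.46) at the bottom, and 22 of these genes take the opposite sign after housekeeping centring and 26 after Cd3 centring.

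**Figure D4:**
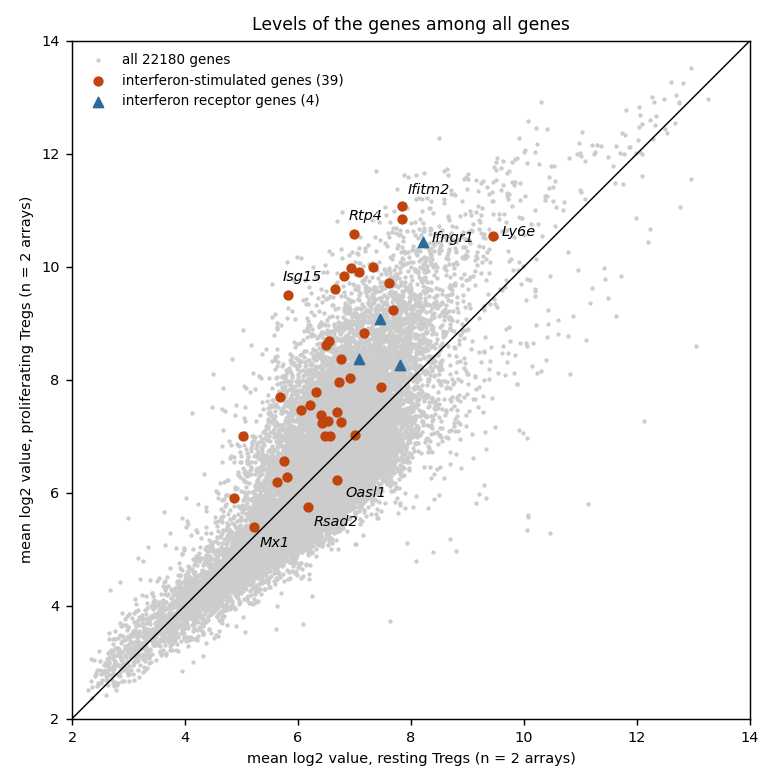
Mean log2 value in proliferating Tregs (y axis) against that in resting Tregs (x axis) for all 22180 genes, with the 39 interferon-stimulated genes and the 4 receptor genes marked and a line of equal values. On these deposited values the marked genes lie mostly above the line, with Rsad2 and Oasl1 below it, while after housekeeping centring 19 of the 43 are lower and after Cd3 centring 26.

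The rest of the interferon pathway was examined by lists of its other parts. Of 19 measured interferon ligands, 2 were higher and 11 lower on the deposited values, against 25.6% and 34.5% of all genes. Their median was -0.51, beside -0.17 over all genes. After median centring 3 were higher and 5 lower, against 34.8% and 15.1% of all genes. After housekeeping and Cd3 centring 0 were higher and 18 and 19 were lower, where 89.5% and 94.7% of all genes were lower. Ifng, the gene of IFN-γ, was at 5.85 and 6.06 in proliferating Tregs, against 4.66 and 4.79 in resting Tregs, a difference of 1.23 ± 0.14 (adjusted p = 0.000305). Its mean level ranked at percentile 16.8 of all genes, where array signal is weak. Ifnl2 (-1.08), Ifna4 (-1.06) and Ifna6 (-0.87) fell most, and the Ifna genes are near-identical copies whose probes could read each other. The other ligand gene that was higher on the deposited values was Ifnk (0.68), a type I interferon of skin, which was dim too (percentile 7.89).

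Of 10 measured transducers between receptor and promoter, 6 were higher and 0 lower, with a median of 0.94, while after housekeeping and Cd3 centring 0 were higher and 7 and 8 were lower. Irf7, the factor that amplifies type I interferon production, was at 8.59 and 8.63 in proliferating Tregs, against 6.85 and 6.90 in resting Tregs (1.74 ± 0.13). Irf9 (1.68), Irf1 (1.30) and Stat2 (1.12) followed, and the proteins of Irf9 and Stat2 act at the ISRE. Jak1, Tyk2, Irf3 and Irf8 did not pass the test.

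Of 13 measured GTPases that interferons induce against intracellular microbes, 12 were higher and Gbp6 (0.060) did not pass the test, with a median of 1.67, while 4 were higher and 2 lower after housekeeping centring and 3 were higher and 5 lower after Cd3 centring. Igtp was at 9.57 and 9.50 in proliferating Tregs, against 6.25 and 6.22 in resting Tregs, a difference of 3.31 ± 0.13 or 9.91-fold (adjusted p = 7.67e-06). Iigp1 (2.77), Gbp7 (2.57) and Irgm2 (1.84) were the next in size. The Gbp genes are close copies, and probes could read several of them.

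Of 12 feedback inhibitors, 9 were higher and Ptpn6 (-0.54) was lower, with a median of 0.77, while 2 were higher and 9 lower after housekeeping centring and 1 was higher and 10 lower after Cd3 centring. Socs1, which blocks JAK kinases, was at 8.83 and 8.88 in proliferating Tregs, against 6.24 and 6.11 in resting Tregs, a difference of 2.68 ± 0.13 or 6.42-fold (adjusted p = 1.26e-05). The phosphatase genes Ptpn2 (2.08) and Ptpn1 (1.04) and the repressor Irf2bp2 (1.61) were also higher. Of 13 measured adaptors and sensors of nucleic acids, 9 were higher and 2 lower, with a median of 0.56, while 1 was higher and 11 lower after housekeeping centring and 0 were higher and 12 lower after Cd3 centring. Ifi204, a DNA sensor, was higher by 2.02 and Tlr7 by 1.24, and the mean level of Ifi204 was dim (percentile 7.42 of all genes). Tlr9, a receptor for DNA that B-cells also carry, was at 6.98 and 6.99 in proliferating Tregs, against 8.59 and 8.47 in resting Tregs (-1.55 ± 0.13). Any link to the B-cell markers, which were lower in the same arrays, was not tested.

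**Figure D5:**
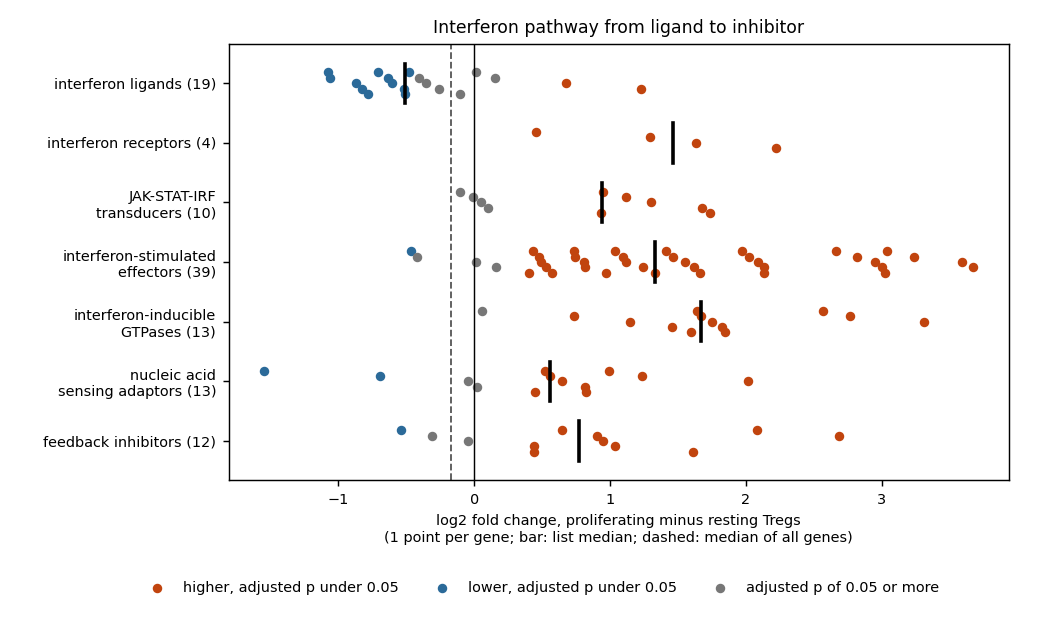
Log2 fold change on the deposited values (proliferating minus resting, x axis) of each measured gene in 7 parts of the interferon pathway (rows, with the number of genes), with a bar at the median of each part and a dashed line at the median of all genes. Receptors, effectors and GTPases lie mostly to the right and ligands mostly to the left. After housekeeping or Cd3 centring the medians of the receptors, transducers, effectors, sensing adaptors and feedback inhibitors fall below 0. That of the GTPases is 0.17 after housekeeping centring and -0.30 after Cd3 centring.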

How the data were processed

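RNA of Tregs sorted by dye dilution was hybridised to 4 Affymetrix whole-transcript arrays. The authors deposited log2 expression values, for which their processing notes name RMA and Partek 6.6. The log2 scale was inferred from these notes and the range of the values. The methods differ in naming R, housekeeping normalization and another array design. Probe sets with 1 gene name in the platform annotation were used (23521 of 41345, of which 23328 matched RefSeq), 1820 with several names were left out, and 16004 are unnamed here. The probe set of highest mean stood for a gene. Groups were compared with limma 3.58.1 in R 4.3.3 (2 residual and 5.48 prior degrees of freedom), and p-values were adjusted over 22180 genes by Benjamini-Hochberg, at 0.05. No filter on dim genes was used. Values of all arrays are given for genes past the test with a log2 fold change of at least 1, for the receptors and for genes that went against the rest, the last chosen after their values were seen. Housekeeping, median, Cd3 and quantile scalings, other priors, probe set rules, tests, a block and left-out arrays were tried. The fit was tested on simulated data. The genes, lists and alternatives were chosen with earlier results of these data known. The number of arrays limits the precision.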

Additional observations from a re-analysis of the deposited data

How the results depend on the processing

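The scaling of the arrays decided the directions most, and no source gives an external standard for RNA content per cell, so levels are relative within each array. Of the 39 higher genes, 34 passed the methods' t-test unadjusted, as the methods name no adjustment, and 24 with Benjamini-Hochberg adjustment added here, and dim genes, which include Mx1, Rsad2 and Eif2ak2, lie where array signal is weak. The calls of the 43 genes did not change with a trended and robust prior or with a gene's probe sets averaged. No source pairs arrays by number. Across genes, the deviations of the arrays numbered 1 from their group means correlated at r = 0.0179. The other arrays deviate by the exact opposite, so this is a single contrast and cannot settle whether arrays were paired. With a replicate block, 39 genes were again higher and 1 lower, with 5765 of all genes higher and 7929 lower.

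Fewer calls were made with arrays left out, and the lone array is then assumed to vary like the other group. Higher genes numbered between 32 and 36 of the 43, lower genes between 0 and 1 (without resting replicate 1 the lower gene was Rsad2), and the median ran between 1.25 and 1.40. All genes higher numbered between 4379 and 5735, and all genes lower between 3962 and 7537. With dim genes left out, 34 of 36 were higher and 1 lower, the median was 1.505, and of all 11090 genes 5122 were higher and 3485 lower. The methods' t-test called 24 genes higher and 0 lower after that adjustment (2781 and 1531 of all genes), and 34 higher and 0 lower without it (5022 and 5072 of all genes). With a minimum log2 fold change of 1, 27 were higher and 0 lower (2796 and 981 of all genes). After quantile normalization 37 were higher and 0 lower with a median of 1.17, and 5606 of all genes were higher and 4702 lower. Centring on the median gave 39 higher and 0 lower with a median of 1.62, and 7722 of all genes were higher and 3350 lower. Centring on housekeeping genes gave 15 higher and 19 lower with a median of -0.17, and 795 of all genes were higher and 19841 lower. Centring on Cd3 genes gave 9 higher and 26 lower with a median of -0.64, and 329 of all genes were higher and 21009 lower.

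The sign turned in 22 genes after housekeeping centring, namely in Mx1 (-1.34), Tor3a (-1.49), Adar (-1.10), Oas2 (-1.07), Ifngr2 (-1.04), Mx2 (-1.03), Trim21 (-1.01), Cmpk2 (-0.98), Ifitm1 (-0.93), Dhx58 (-0.77), Oas3 (-0.76), Ifit2 (-0.69), Samd9l (-0.68), Trim25 (-0.53), Eif2ak2 (-0.47), Ly6e (-0.41), Parp14 (-0.39), Ddx58 (-0.26), Ifnar1 (-0.21), Parp12 (-0.17), Oasl2 (-0.093) and Parp9 (-0.042). It turned in 26 genes after Cd3 centring, namely in Tor3a (-1.96), Mx1 (-1.81), Adar (-1.57), Oas2 (-1.54), Ifngr2 (-1.51), Mx2 (-1.49), Trim21 (-1.48), Cmpk2 (-1.44), Ifitm1 (-1.40), Dhx58 (-1.24), Oas3 (-1.23), Ifit2 (-1.16), Samd9l (-1.15), Trim25 (-1.002), Eif2ak2 (-0.94), Ly6e (-0.88), Parp14 (-0.86), Ddx58 (-0.73), Ifnar1 (-0.68), Parp12 (-0.64), Oasl2 (-0.56), Parp9 (-0.51), Isg20 (-0.42), Herc6 (-0.36), Ifnar2 (-0.34) and Ifi35 (-0.31). These turns follow from the higher levels of the centring genes in the proliferating arrays. After quantile normalization Ifngr2 (-0.027) and Tor3a (-0.0095) turned. With arrays left out, Mx1 ran between -0.11 and 0.44 and Tor3a between -0.0020 and 0.031, both below 0 without resting replicate 1.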
